A study of Mus musculus with 7 samples.

Results

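Pou5f1, Sox2, Nanog, Sall4, Utf1, Fbxo15, Zfp296, L1td1 and Eras are genes of pluripotent mouse cells, and their messenger RNA was followed across 7 Affymetrix arrays of fibroblasts, induced pluripotent stem (iPS) cells and embryonic stem (ES) cells. These 9 genes were chosen by name, and all 9 were found among the 19938 genes of the arrays that had a probe set with exactly 1 gene symbol. Each of the 9 had 1 such probe set, so no choice between probe sets was needed. Mouse embryonic fibroblasts (MEFs) came from 129/OG2 embryos at 13.5 days post coitum and gave 1 array in FBS medium and 1 in a medium called iCD1. The iPS lines O4-1, O4-2 and O4-4 were made from fibroblasts infected with Oct4, and each gave 1 array in KSR medium. A further array came from line O4-1 grown in N2B27(2i), where 2i stands for 2 kinase inhibitors used to hold pluripotent cells in the naive state. OG2 ES cells gave 1 array in the same 2i medium. OG2 is known as a mouse strain with a green fluorescent reporter under Oct4 regulatory sequence, and the labels name it for the MEFs and the ES cells.

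Pou5f1 encodes Oct4, which binds DNA together with Sox2, and both factors act with Nanog on a shared set of genes that includes their own. Sall4 is a zinc finger factor that binds close to these factors and is needed for the growth of the early embryo and of ES cells. Utf1 and Fbxo15 are classical targets of the Oct4 and Sox2 pair, and Fbxo15 is known as the reporter gene with which mouse iPS cells were first selected. Zfp296 encodes a zinc finger protein of ES cells, L1td1 an RNA-binding protein derived from a LINE-1 element, and Eras a constitutively active relative of Ras that supports the growth of ES cells.

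Promoter windows are shown first because Oct4 and Sox2 bind DNA and all 9 genes were higher on iPS and ES arrays than in MEFs. RefSeq windows of build GRCm38.p6, from 250 bases before to 50 bases after a start site, were at hand for 7 of the 9 genes, as 9 windows, with none for Sall4 and none shown for Fbxo15. They were searched on both strands for the octamer ATGCAAAT, for a composite of an octamer part and a SOX part, TTGTNATGC, and for the SOX core CATTGT, which can overlap the composite. The windows printed here are those of Nanog (chr6:122707315-122707614, plus strand), Zfp296 (chr7:19577037-19577336, plus strand) and Eras (chrX:7928558-7928857, minus strand), 5′ to 3′ on the gene's strand, with the matched letters in capitals.

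Nanog: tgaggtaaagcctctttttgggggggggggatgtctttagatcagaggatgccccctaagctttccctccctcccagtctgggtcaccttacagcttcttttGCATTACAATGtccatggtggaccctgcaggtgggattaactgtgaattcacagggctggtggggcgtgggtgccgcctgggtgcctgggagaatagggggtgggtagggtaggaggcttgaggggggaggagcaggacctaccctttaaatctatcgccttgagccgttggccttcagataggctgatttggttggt

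Zfp296: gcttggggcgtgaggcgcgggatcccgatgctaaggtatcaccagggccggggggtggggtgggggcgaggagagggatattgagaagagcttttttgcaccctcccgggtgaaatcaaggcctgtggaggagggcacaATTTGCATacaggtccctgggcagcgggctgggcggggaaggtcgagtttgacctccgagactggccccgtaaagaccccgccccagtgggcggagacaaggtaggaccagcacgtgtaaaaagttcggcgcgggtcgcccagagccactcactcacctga

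Eras: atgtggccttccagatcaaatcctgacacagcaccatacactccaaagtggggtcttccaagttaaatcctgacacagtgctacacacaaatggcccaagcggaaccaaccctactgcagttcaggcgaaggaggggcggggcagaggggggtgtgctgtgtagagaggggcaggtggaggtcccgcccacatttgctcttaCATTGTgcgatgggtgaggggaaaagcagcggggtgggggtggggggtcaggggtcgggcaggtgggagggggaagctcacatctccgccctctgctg

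The Nanog window held the composite on the opposite strand, from -148 to -140 relative to the start site, and the SOX core overlapping it from -143 to -138. A second Nanog window, starting 5′ of the printed one, held the same element. The Zfp296 window held the octamer on the opposite strand, from -111 to -104. The Eras window held the SOX core on its own strand, from -48 to -43. One of the 2 Pou5f1 windows (chr17:35508557-35508856) also held the SOX core, and the windows of Sox2, L1td1 and Utf1 held none of these letters. Over all 32851 windows of the same length, 1.74% held the octamer, 0.731% the composite and 12.6% the SOX core. A match of letters is a description and does not show binding.

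The deposited values are log2 expression, and all differences are on the log2 scale, where 1 stands for a 2-fold difference. The median of the tested genes on an array, called the array median here, lay between 5.16 and 5.27. Probe sets differ in how strongly they respond, so levels are compared for 1 gene across arrays and not between genes. The fibroblast markers set the MEF arrays apart. The 15 measured fibroblast markers averaged 8.90 in FBS MEFs and 9.60 in iCD1 MEFs, and none was below the array median there. They averaged 6.34, 6.32 and 6.80 in the KSR lines O4-1, O4-2 and O4-4, 5.85 in iPS cells in 2i and 6.51 in ES cells, with 1 to 6 markers below the array median. Fibroblast marker RNA was thus lower on average on the pluripotent arrays, and the markers differed there. The collagen gene Col1a1, the highest of them on these arrays, stood at 8.90 in iPS cells in 2i and at 10.32 in line O4-4. In iPS cells in 2i 6 markers were below the array median, among them S100a4 at 3.91, Lum at 4.56 and Thy1 at 4.71. The part of fibroblast RNA in the results below was not tested. In such bulk samples fewer cells of a type and less RNA per cell cannot be told apart. Only the KSR group was replicated (n = 3 lines), so p-values measure the spread between these lines, and separate cultures are not stated in the labels.

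All 9 genes were higher in the iPS lines in KSR than in MEFs, and all 9 rose in limma. The rises ran from 1.42 for Eras to 7.15 for Pou5f1, with a median of 4.81, beside a median of 0.00 over all genes tested. By the same call 12.1% of all genes were higher in the iPS lines. Of the 18 MEF values of the 9 genes only 2, those of Nanog and Zfp296 in FBS MEFs, reached the array median. When every value under an array's median was set to that median, the rises ran from 0.06 for Eras to 5.60 for Pou5f1, with a median of 3.80. For all 9 genes every KSR array lay above both MEF arrays, which held for 25.6% of all genes, and every one of the 5 pluripotent arrays did so too, which held for 21.9%. Medium and cell type changed together in this comparison, because no MEF array was in KSR.

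**Figure D1:**
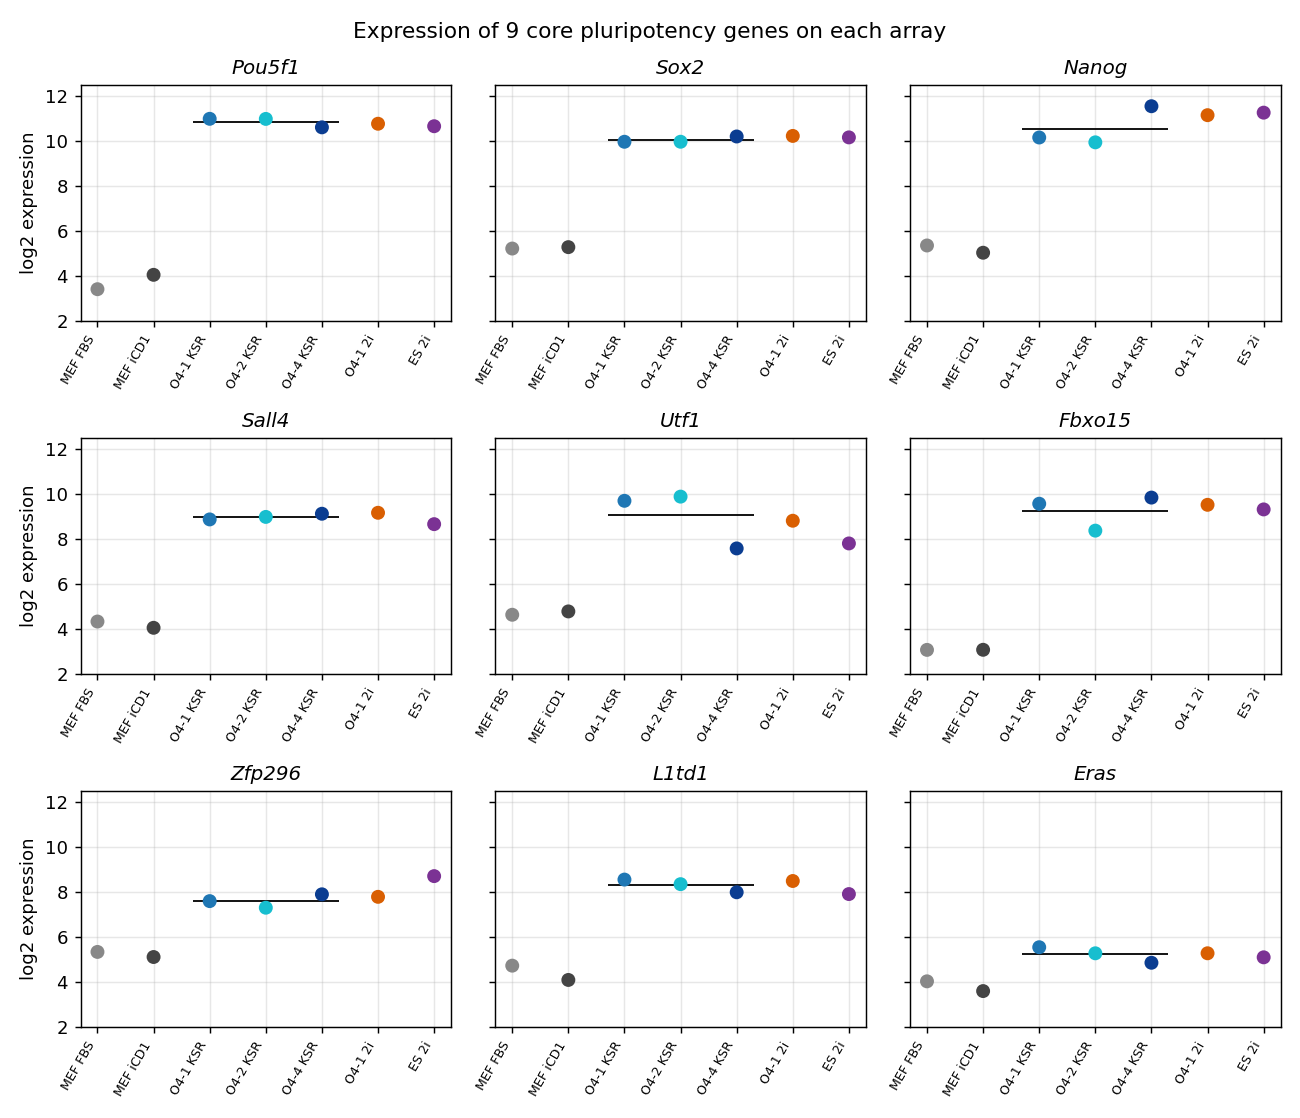
Log2 expression (y axis) of the 9 genes on each of the 7 arrays (x axis), 1 point per array, with a line at the mean of the 3 KSR lines. Both MEF arrays lie below all 5 pluripotent arrays in every panel, from a gap of 0.83 for Eras to 6.57 for Pou5f1, and the points of Nanog, Utf1 and Fbxo15 spread widely among the KSR lines.

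Among the core factors, Pou5f1 stood at 3.40 in FBS MEFs and 4.04 in iCD1 MEFs. The KSR lines O4-1, O4-2 and O4-4 stood at 10.99, 10.99 and 10.61, and the values were 10.77 in iPS cells in 2i and 10.66 in ES cells. The pluripotent arrays lay within 0.38 of each other and far above both MEF arrays. The rise over MEFs, 7.15 ± 0.17 (SE; limma, adjusted p = 0.00659; 95% interval 6.66 to 7.63), was the widest of the 9. Both MEF values lay below the array median, and with the floor at that median the rise was 5.60. The iPS cells had been infected with Oct4, and RNA from the introduced gene, if present, was not separated from that of the endogenous gene here. RefSeq lists 7 related sequences named as copies of Pou5f1 and 2 of Nanog, most of them pseudogenes, and whether the probe sets read them was not tested. One copy, Pou5f1-rs4, had a probe set of its own and was looked up for this reason, outside the planned lists. It stood at 2.69 in FBS MEFs, at 2.90 in iCD1 MEFs and at 3.78, 3.76 and 3.53 in the KSR lines. Both iPS cells in 2i and ES cells were at 3.42. It rose by 0.89 ± 0.12 in the KSR lines over MEFs (SE; limma, adjusted p = 0.0194), with every value below the array median.

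Sox2 had the smallest range of the 9 across pluripotent cultures. It stood at 5.21 in FBS MEFs and 5.27 in iCD1 MEFs. The KSR lines O4-1, O4-2 and O4-4 stood at 9.97, 9.97 and 10.20, with 10.23 in iPS cells in 2i and 10.16 in ES cells. Its range over the 5 pluripotent arrays was 0.26, against a median range of 0.46 over all genes, and its rise over MEFs was 4.81 ± 0.12 (SE; limma, adjusted p = 0.00659; 95% interval 4.45 to 5.16), or 28.0-fold.

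Sall4 stood at 4.33 in FBS MEFs, at 4.05 in iCD1 MEFs and at 8.88, 8.99 and 9.13 in the KSR lines. It was at 9.17 in iPS cells in 2i and at 8.67 in ES cells, the lowest of the pluripotent arrays. The rise over MEFs was 4.81 ± 0.12 (SE; limma, adjusted p = 0.00659; 95% interval 4.47 to 5.15), and 3.73 with the floor at the array median. The SD of the KSR lines was 0.13, the smallest of the 9 genes.

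Nanog separated the pluripotent arrays into a lower and a higher set of values. FBS MEFs stood at 5.35 and iCD1 MEFs at 5.02. Lines O4-1 and O4-2 in KSR were at 10.16 and 9.94, while line O4-4 in KSR was at 11.55, iPS cells in 2i at 11.15 and ES cells at 11.26. The KSR lines thus spanned 1.61, a wider span than in 99.2% of all genes, and the arrays in 2i lay inside it. Its rise over MEFs was 5.37 ± 0.60 (SE; limma, adjusted p = 0.0135; 95% interval 3.64 to 7.10). RNA of line O4-1 was measured in both media, and Nanog was 0.99 higher in 2i there, with 1 array on each side and no test.

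Of the targets of the Oct4 and Sox2 pair, Utf1, a chromatin-associated factor, ran the other way. FBS MEFs stood at 4.63 and iCD1 MEFs at 4.78. Lines O4-1 and O4-2 in KSR had values of 9.71 and 9.89, and line O4-4 had 7.58. It was at 8.82 in iPS cells in 2i and at 7.81 in ES cells. The arrays with the lower Nanog values were those with the higher Utf1 values, and line O4-4 had the highest Nanog and the lowest Utf1 of the pluripotent arrays. The KSR lines spanned 2.31, so that its rise over MEFs was uncertain in size, at 4.36 ± 0.87 (SE; limma, adjusted p = 0.0410; 95% interval 1.83 to 6.89), and 3.80 with the floor at the array median. Fbxo15, an F-box protein gene, stood at 3.06 in FBS MEFs and 3.07 in iCD1 MEFs. The KSR lines O4-1, O4-2 and O4-4 had values of 9.58, 8.38 and 9.85, with 9.53 in iPS cells in 2i and 9.32 in ES cells, so line O4-2 alone stood low among the pluripotent arrays. It rose by 6.20 ± 0.54 (SE; limma, adjusted p = 0.00961) over MEF values below the array median, and by 4.00 with the floor at that median.

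Of the remaining ES cell genes, Zfp296 stood at 5.34 in FBS MEFs and 5.11 in iCD1 MEFs. The KSR lines O4-1, O4-2 and O4-4 had values of 7.60, 7.31 and 7.91, with 7.80 in iPS cells in 2i and 8.72 in ES cells. ES cells stood above every iPS array for this gene. Its rise over MEFs was 2.38 ± 0.22 (SE; limma, adjusted p = 0.0102; 95% interval 1.75 to 3.01). L1td1 stood at 4.73 in FBS MEFs, at 4.09 in iCD1 MEFs, at 8.56, 8.36 and 8.00 in the KSR lines, at 8.50 in iPS cells in 2i and at 7.92 in ES cells, where it was lowest among the pluripotent arrays. Its rise was 3.90 ± 0.21 (SE; limma, adjusted p = 0.00708), and 3.04 with the floor at the array median. Eras had the smallest rise of the 9. It stood at 4.03 in FBS MEFs and 3.60 in iCD1 MEFs. The KSR lines O4-1, O4-2 and O4-4 had values of 5.55, 5.28 and 4.86, with 5.28 in iPS cells in 2i and 5.10 in ES cells. It reached the array median on 3 arrays, those of lines O4-1 and O4-2 in KSR and of iPS cells in 2i, and was below it in line O4-4, ES cells and MEFs. The rise of Eras, 1.42 ± 0.25 (SE; limma, adjusted p = 0.0315; 95% interval 0.69 to 2.14), fell to 0.06 and out of the call (limma, adjusted p = 0.700) with the floor at the array median.

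Leaving out arrays changed the calls over all genes, 5260 in both directions with every array, as well as those of the 9. A fit without 1 KSR line had fewer residual degrees of freedom. The rises of the 9 ran from 1.26 for Eras to 7.08 for Pou5f1 without line O4-1. Without line O4-2 they ran from 1.39 to 7.08 for the same genes, beside 1.42 to 7.15 with every array. When line O4-1 was left out limma called 0 of all 19938 genes and so 0 of the 9, with 8 of the 9 and 5804 of all genes at an unadjusted p under 0.05. When line O4-2 was left out limma also called 0 of all genes, with 9 of the 9 and 6924 of all genes at that level. The adjusted p of the 9 in limma ran from 0.0833 to 0.178 without line O4-1 and from 0.0503 to 0.135 without line O4-2. When line O4-4 was left out limma called 2776 genes and all 9. Against the FBS array alone 2968 genes and 7 of the 9 were called, without Utf1 and Eras (limma, adjusted p = 0.0857 and 0.0947), and against the iCD1 array alone 3947 genes and 8 of the 9 were called, without Utf1 (limma, adjusted p = 0.0812).

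**Figure D2:**
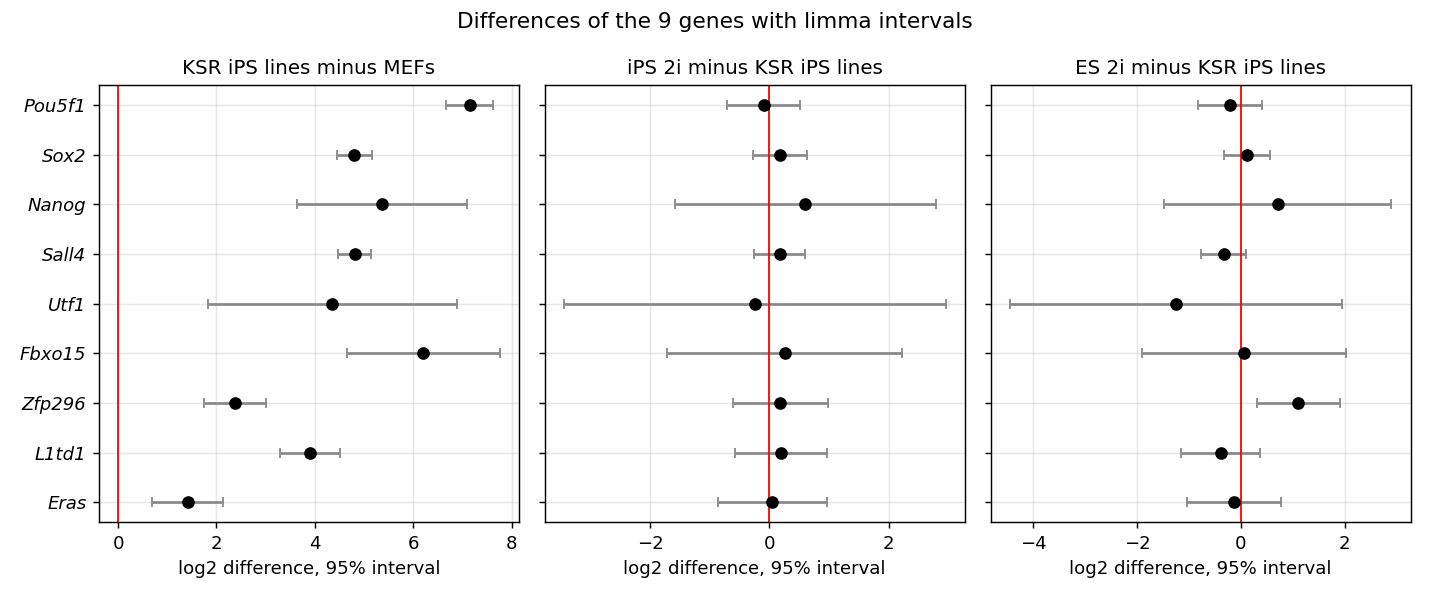
Log2 differences (x axis) of the 9 genes (y axis) for KSR iPS lines minus MEFs, iPS cells in 2i minus KSR lines, and ES cells in 2i minus KSR lines. Points are limma estimates and bars 95% intervals. All 9 intervals lie above 0 on the left, while in the other panels only that of Zfp296 in ES cells, from 0.31 to 1.91, leaves out 0 before adjustment.

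Between the MEF arrays the 9 genes differed by at most 0.64, with 1 array on each side and no test. For Pou5f1, Sall4, L1td1 and Eras the difference was wider than the SD of the KSR lines. A difference between 2 single arrays carries the spread of both, and the share of all genes past that SD was not counted. The comparison thus describes these genes only. The difference of iCD1 from FBS was 0.64 for Pou5f1, -0.64 for L1td1 and -0.43 for Eras, and among the others Nanog had the widest, at -0.32. None of the 9 reached a 2-fold difference, which 2.7% of all genes did. Only Nanog and Zfp296 in FBS MEFs, at 5.35 and 5.34, lay above the array median among these values.

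The 2i cultures were compared with the KSR lines to see how the 9 genes differed between them. In iPS cells in 2i 7 of the 9 genes lay higher than the KSR mean, with a median difference of 0.18 beside 0.01 over all genes. Limma called 0 of the 9 and 0.0% of all genes higher, with 0 of the 9 and 1339 of all genes at an unadjusted p under 0.05. The intervals were narrow for Pou5f1 (-0.71 to 0.52), Sox2 (-0.26 to 0.63) and Sall4 (-0.26 to 0.60) and wide for Utf1 (-3.44 to 2.96), Nanog (-1.59 to 2.79) and Fbxo15 (-1.71 to 2.23). For the last 3 genes a change of 2-fold in either direction lies inside the interval. The array in 2i lay outside the range of the KSR lines for 2 of the 9 genes, Sox2 and Sall4, both above it, against 51.1% of all genes. Line O4-1 itself differed 2-fold or more between the media for 0 of the 9 genes, against 1.43% of all genes.

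ES cells in 2i shared these KSR controls, so that the results of both comparisons are not independent. Medium and origin of the cells changed together here, because no ES array was in KSR, and their parts cannot be told apart. In ES cells 4 of the 9 genes lay higher than the KSR mean, with a median difference of -0.13 beside 0.00 over all genes. Limma again called 0 of the 9 and 0.0% of all genes higher, with 1 of the 9 and 1746 of all genes at an unadjusted p under 0.05. Zfp296 was that gene. It was 1.11 ± 0.28 higher in ES cells (SE; limma, adjusted p = 0.571), a difference that did not pass over all genes. ES cells lay outside the range of the KSR lines for 3 of the 9, above it for Zfp296 and below it for Sall4 and L1td1, against 53.3% of all genes. Utf1 had the widest negative difference, -1.25 ± 1.11 (SE; limma, adjusted p = 0.774). It was -1.99 ± 0.14 without line O4-4 (limma, adjusted p = 0.435) and -0.84 ± 1.21 without line O4-2 (limma, adjusted p = 0.858). Set directly against iPS cells in 2i, with 1 array each and no test, ES cells were 1.01 lower for Utf1 and 0.92 higher for Zfp296. Utf1 was the only one of the 9 to differ 2-fold there, as did 0.978% of all genes.

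**Figure D3:**
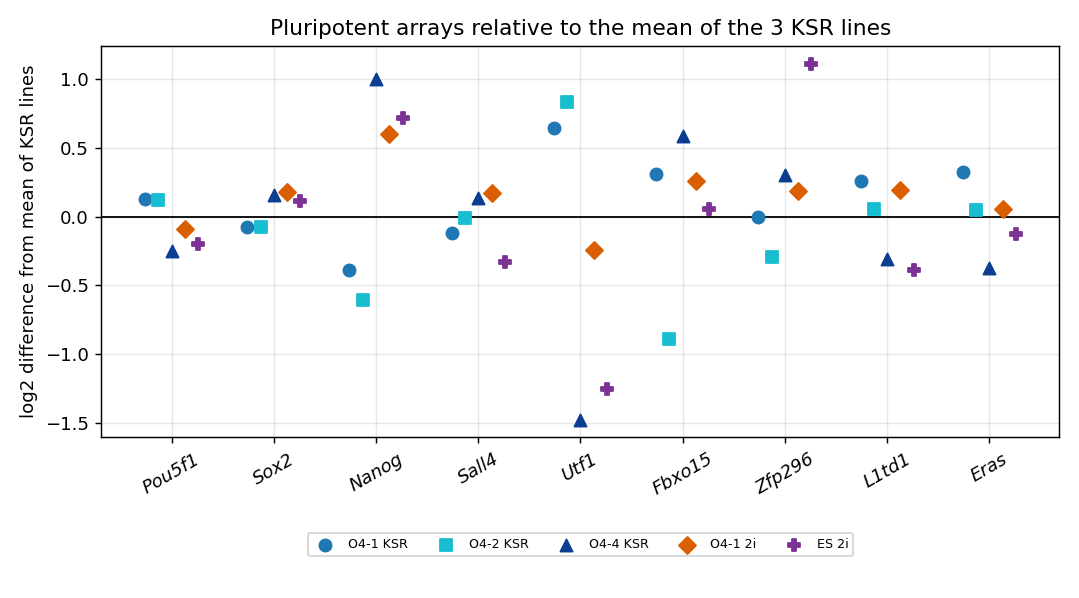
Difference of each of the 5 pluripotent arrays from the mean of the 3 KSR lines (y axis, log2) for the 9 genes (x axis), 1 symbol per array. Line O4-4 is the highest array for Nanog, at 1.00, and the lowest for Utf1, at -1.48, while the widest deviation of Pou5f1 is -0.25, in line O4-4, and that of Sox2 is 0.18, in iPS cells in 2i.

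Most steps in the order of levels among pluripotent cultures were within the spread of the KSR lines. With the KSR lines taken as their mean, 18 neighbouring pairs of levels could be formed among KSR iPS cells, iPS cells in 2i and ES cells, 2 for each gene. In 14 of these pairs the gap was smaller than the SD of the KSR lines. The gaps beyond it were those of Sall4, where iPS cells in 2i stood 0.17 above the KSR mean and ES cells 0.33 below it, that of Zfp296 between ES cells and iPS cells in 2i (0.92), and that of L1td1 between the KSR mean and ES cells (0.39). In each of these genes the gap between the lowest pluripotent culture and the higher MEF array was wider than that SD. Neither result was set beside the same count over all genes, so they describe these genes only.

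For 5 of the 9 genes, Pou5f1, Nanog, Utf1, Fbxo15 and Eras, both the highest and the lowest pluripotent array were KSR lines. KSR lines made up 3 of the 5 pluripotent arrays, and the share of all genes with this pattern was not counted. Line O4-4 lay outside the pair of lines O4-1 and O4-2 for all 9 genes, above it for Sox2, Nanog, Sall4, Fbxo15 and Zfp296 and below it for Pou5f1, Utf1, L1td1 and Eras. Of all genes 68.9% had line O4-4 outside that pair. Against O4-1 it differed 2-fold or more in 2 of the 9, Nanog and Utf1, where 1.55% of all genes did. Against O4-2 it did so in 3, with Fbxo15 added, where 2.83% did. Lines O4-1 and O4-2 differed 2-fold in Fbxo15 alone, by 1.20, where 0.612% of all genes did. The fibroblast markers had their highest mean among the KSR lines in line O4-4, at 6.80 against 6.34 and 6.32, but not all moved together. Col1a1, Col1a2, Col3a1, Col5a2, Col6a2, Pdgfrb, Prrx1, Dcn, Lum and Postn, most of the measured markers, were highest there, though Prrx1 only narrowly. Col1a1 was at 10.32 in line O4-4 against 9.17 and 9.21, and Postn at 6.92 against 5.53 and 4.94. Thy1, Pdgfra, Twist2 and S100a4 were lowest in that line, with Thy1 at 5.70 against 6.17 and 5.96. The part of the fibroblast markers in these differences was not tested.

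By their spread over the 5 pluripotent arrays the 9 genes fell apart. Utf1, Nanog, Fbxo15 and Zfp296 had ranges of 2.31, 1.61, 1.47 and 1.41, wider than in 99.7%, 98.4%, 97.7% and 97.4% of all genes. Those of Eras, L1td1 and Sall4 were 0.69, 0.65 and 0.51. Pou5f1 and Sox2 had ranges of 0.38 and 0.26, below the median of all genes, 0.46.

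Likeness to other genes was measured as Pearson's r of log2 values over the 7 arrays, among 1859 genes with a range of at least 2. The points share the step from MEFs to pluripotent cells, which sets most of r, and they are a description. Closest to Pou5f1 was Gldc (r = 0.999), the glycine decarboxylase gene, and closest to Sox2 was Dppa5a (0.999). Alpl, the alkaline phosphatase gene used to stain pluripotent colonies, was closest to Nanog (0.998), and the meiotic recombinase gene Dmc1 to Utf1 (0.998). Pla2g1b was closest to Sall4 (0.998), Taf7 to Fbxo15 (0.998), Sorl1 to Zfp296 (0.994) and Mov10l1 to Eras (0.988), and the nearest gene to L1td1 was the small nucleolar RNA gene Snord82 (0.999). Over the 5 pluripotent arrays alone, among 1508 genes with a range of at least 1, the nearest genes were Lap3 (r = 1.00) and the receptor gene Kit (0.999) for Nanog, Dmc1 (0.997) for Utf1, Dpp4 (0.993) for Fbxo15 and Mindy2 (0.996) for Zfp296. With 5 points and so many candidates high values of r occur readily, and the other 5 of the 9 genes varied too little there to be set out.

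Most of a wider list of pluripotency network genes also rose. Of 33 measured factors, cofactors and targets 25 rose in the KSR lines over MEFs in limma, 0 fell and 8 did not pass, with a median difference of 2.86, beside 12.1% of all genes called higher. The largest rises were those of Dppa5a (8.97 ± 0.13), Tdgf1, the Nodal co-receptor gene (7.77 ± 0.20), Dppa2 (6.13 ± 0.18), the orphan receptor gene Nr0b1 (5.58 ± 0.21) and the dioxygenase gene Tet1 (4.70 ± 0.20; all SE; limma). The smallest were those of Klf5 (1.04 ± 0.20), Nacc1, which encodes a partner of Nanog (1.13 ± 0.16), Zfp281 (1.43 ± 0.14), Klf2 (1.46 ± 0.18) and the corepressor gene Trim28 (1.58 ± 0.13), and MEFs already held these genes at means of 6.55 to 9.59. The 8 genes that did not pass were Klf4 at 0.87 ± 0.27, Tfcp2l1 at 3.47 ± 1.06, Tbx3 at 0.83 ± 0.76, Prdm14 at 2.27 ± 0.66, Myc at -0.77 ± 0.40, Lefty1 at 3.59 ± 1.13, Dnmt3l at 4.07 ± 1.39 and Otx2 at 2.24 ± 0.85. In both comparisons of 2i cultures with KSR limma called 0 of the 33, with a lowest adjusted p of 0.727 for iPS cells and 0.571 for ES cells.

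**Figure D4:**
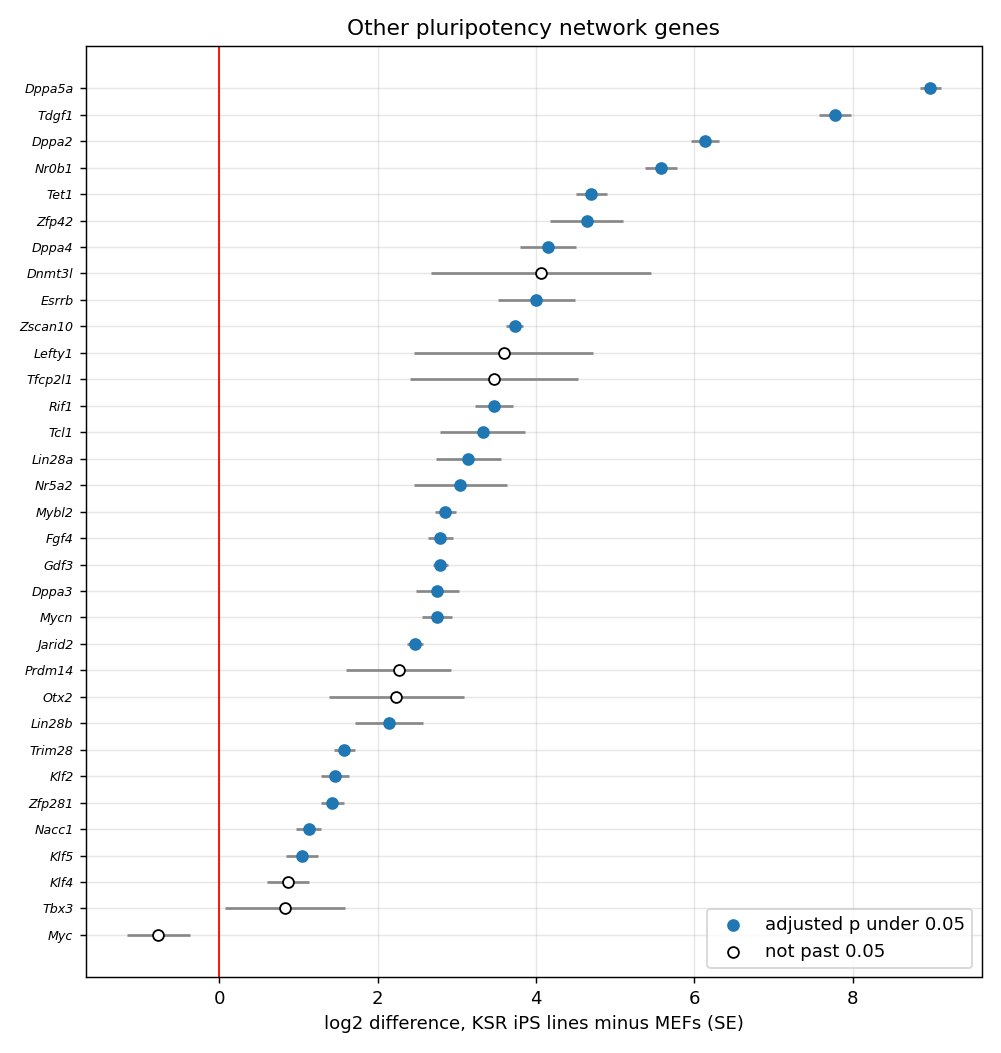
Log2 difference between KSR iPS lines and MEFs (x axis, limma estimate with SE) for 33 other genes of the pluripotency network (y axis). Filled points passed an adjusted p of 0.05; 25 did, all to the right of 0, and Myc is the only gene to the left of it.

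Relatives of the 9 genes in their families behaved in mixed ways. Of 9 measured POU genes beside Pou5f1, 1 rose and 0 fell, and that gene, Pou4f1, went from 3.19 to 4.01, below the array median on both sides. Of 18 SOX genes beside Sox2, 2 rose and 4 fell. Sox15 rose by 1.18 ± 0.11 (limma, adjusted p = 0.0107) and Sox13 by 0.75 ± 0.15, while Sox4 fell by 2.16 ± 0.26, Sox9 fell by 1.94 ± 0.25, Sox5 fell by 1.01 ± 0.10 and Sox6 fell by 0.67 ± 0.12. Sox3, the closest kin of Sox2 together with Sox1, was at 0.59 ± 0.15 (limma, adjusted p = 0.0654), and Sox1 at 0.28 ± 0.10. Of 3 SALL genes beside Sall4, Sall1 rose by 2.33 ± 0.22 (limma, adjusted p = 0.0108), and Sall2 and Sall3 were at -0.09 ± 0.31 and 0.15 ± 0.12. Of 4 Ras genes beside Eras 0 passed in either direction. Nras was at 0.16 ± 0.15, Rras2 at -0.02 ± 0.10, Mras at -1.01 ± 0.57 and Rras at -1.12 ± 0.25 (limma, adjusted p = 0.0511). Of 11 F-box genes beside Fbxo15, 2 rose and 2 fell. Fbxo5, an inhibitor of the anaphase-promoting complex, rose by 1.28 ± 0.12 and Fbxo7 by 0.62 ± 0.10, while Fbxo3 fell by 0.60 ± 0.11 and Fbxo17 fell by 0.43 ± 0.09. The differences between each of the 9 genes and its relatives were not tested.

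**Figure D5:**
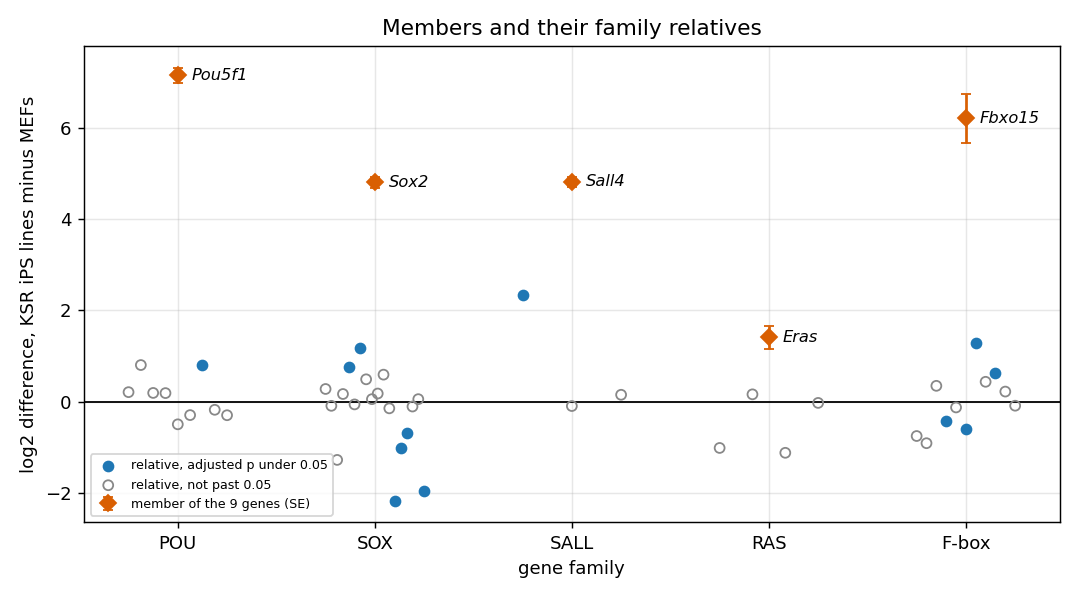
Log2 difference between KSR iPS lines and MEFs (y axis) for Pou5f1, Sox2, Sall4, Eras and Fbxo15 (diamonds, with SE) and for the measured relatives of each (circles, filled where the adjusted p was under 0.05), by family (x axis). Each diamond lies above every circle of its family; Sall1, at 2.33, is the highest circle.

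Markers of other cell types that can hold some of the 9 genes were looked at on the same arrays. Sox2 is known from neural progenitors too, and of 6 measured neural markers 0 passed in either direction, with Pax6 at 4.34, 4.86 and 3.93 in the KSR lines. Of 8 primitive endoderm markers 0 rose and 3 fell. Those were Gata6, Dab2 and Pdgfra, from MEF means of 6.83, 8.59 and 9.93, and Pdgfra is also on the fibroblast list. Of 6 trophoblast markers 2 rose, Eomes and Tfap2c, the latter also known from ES and germ cells, while Cdx2 stayed between 3.82 and 4.08 on all arrays. Eomes stood at 4.93, 4.98 and 5.08 in the KSR lines, below the array median, and above it at 5.24 in iPS cells in 2i and 5.56 in ES cells. Of 6 germ cell markers 4 rose, Ddx4, Dazl, Mael and Sycp3, with a list mean of 6.28, 5.65 and 5.77 in the KSR lines against 3.23 and 3.33 in MEFs. Of 6 epithelial markers 4 rose, the cadherin gene Cdh1 by 4.83 ± 0.14, Epcam by 4.50 ± 0.26, Esrp1 by 3.70 ± 0.73 and Cldn6 by 2.73 ± 0.56 (SE; limma), and Cdh1 and Epcam are also known from ES cells. The epithelial list averaged 7.62, 7.97 and 6.97 in the KSR lines O4-1, O4-2 and O4-4 against 4.79 and 4.94 in MEFs, while Krt8 and Krt18 were at 0.37 ± 0.29 and -0.19 ± 0.43. The part of these cell types in the results was not tested.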

How the data were processed

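RNA was labelled from 100 ng of total RNA per culture with the Affymetrix whole transcript assay and hybridised to 7 arrays, per the labels' protocols. The authors deposited 1 log2 expression value per probe set and array, and the submitters' processing notes name RMA and Partek. Their versions and settings are not given in the sources at hand, and no signal over background comes with the values. RMA equalises the arrays, so a change shared by most genes would not show. Values were used as deposited. Groups follow the titles and growth conditions, while other label fields disagree with them (all descriptions speak of iPS cells, and the source field of the ES array names fibroblasts).

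Of 28853 probe sets 21789 had 1 gene symbol, and per gene the one with the highest mean was kept. Differences were tested over all 19938 genes with limma 3.58.1 in R 4.3.3, in 1 fit of 5 groups, two-sided, with Benjamini-Hochberg adjustment at 0.05. It had 2 residual degrees of freedom and 1.62 from the prior, so single arrays borrow the spread of the KSR lines. Alternatives were the mean of all probe sets, quantile normalization, a filter on low values, a floor at the array median, a prior with a trend, other MEF controls, both MEF arrays as 1 group, and leaving out each KSR line. The 9 genes and the lists were chosen with earlier results of these data known. Named network genes were the 5 largest and 5 smallest rises past the threshold, to which those that did not pass were added after their values were seen. Named relatives were those past the threshold that reached the array median or went against the gene of the 9 in their family, with Pou4f1 and a few others added afterwards. The nearest genes were the first by r.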

Additional observations from a re-analysis of the deposited data

How the results depend on the processing

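All 9 genes kept the direction of their difference between KSR iPS lines and MEFs under every alternative run. The number of the 9 called was 9 with the mean of all probe sets, quantile normalization, a filter on low values, a prior with a trend and both MEF arrays as 1 group. Each of the 9 had 1 probe set, so the mean of all probe sets could not alter their values. The filter kept a gene whose highest array reached that array's median, as all 9 did on pluripotent arrays, and it left their values unaltered. Under both settings the directions were thus fixed, and calls could change only through the prior and the adjustment. It was 8 with a floor at the array median and with MEFs in iCD1 alone, and 7 with MEFs in FBS alone. Leaving out 1 KSR line gave 0 to 9: without line O4-1 or O4-2 limma called 0 of all 19938 genes and 0 of the 9, and without line O4-4 it called 2776 and 9. Fits without a line had fewer residual degrees of freedom than the fit with every array. In the comparisons of 2i cultures with KSR lines 0 of the 9 were called under every alternative run. Without line O4-4, 2 of the 9 and 1783 of all genes for iPS cells, and 3 of the 9 and 2268 for ES cells, had an unadjusted p under 0.05. Nanog then moved from 0.60 to 1.10 ± 0.16 for iPS cells and from 0.71 to 1.21 ± 0.16 for ES cells, and Utf1 from -1.25 to -1.99 ± 0.14 for ES cells. A few small differences there changed sign. For iPS cells in 2i, leaving out 1 KSR line moved Utf1 (-0.24 with all lines) between -0.98 and 0.17, with 0.08 without line O4-1, Fbxo15 (0.26) between -0.19 and 0.55, and Eras (0.05) between -0.13 and 0.21. For ES cells it moved Eras (-0.13) between -0.31 and 0.031, and Fbxo15 (0.05) between -0.39 and 0.35. No paired analysis was possible because KSR and 2i share only line O4-1. With no signal over background given, low values such as those of MEFs limit what can be said of differences between them.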
